A study of Mus musculus with 6 samples.

Results

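The CCN family consists of secreted, cysteine-rich matricellular proteins. Its members in the gene count table, chosen by symbol, were Ctgf (CCN2), Cyr61 (CCN1), Nov (CCN3), Wisp1 (CCN4) and Wisp2 (CCN5), which are 5 of the 22295 genes listed. The RNA came from GFP-positive keratinocytes sorted from epidermis of FVB mice, with 3 libraries from K19 Itga3 WT mice (K19(Cre-ERT); mTmG) and 3 from K19 Itga3 KO mice (K19(Cre-ERT); mTmG; Itga3 fl/fl). All mice carried the inducible Cre and the mTmG reporter, so that tamoxifen switched on GFP in both genotypes and removed floxed Itga3 in the KO. The Cre is driven by the K19 promoter, which is active in hair bulge (HB) cells, and their GFP-positive progeny were sorted with them. By the labels, tamoxifen at 10 mg/ml was injected over 4 days from an age of 6 weeks, and 30 μg DMBA was applied at 7 weeks, followed by 2 weeks of TPA at 12.34 μg per application. The methods give a slightly younger age and a lower concentration for the tamoxifen injections, with topical tamoxifen added. Library columns carry the genotype and no sample number, so they are named WT a to c and KO a to c in the order of the table, and values of single libraries follow that order throughout.

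CCN proteins are built from modules that resemble IGF-binding proteins, von Willebrand factor type C repeats, thrombospondin repeats and, except in CCN5, a carboxy-terminal cystine knot. They bind integrins, heparan sulphate proteoglycans such as syndecan 4, and LRP receptors, and they also bind growth factors and matrix proteins. In skin, CCN2 is known as an effector of TGF-β in fibroblasts and wounds, and the genes of CCN1 and CCN2 are standard targets of YAP and TAZ acting through TEAD factors. The question was whether the relatives of Ctgf followed its change when α3β1 was lost from HB keratinocytes.

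Total counts were 20578309 to 23670507 per library, and 3 counts, used as the floor, corresponded to 0.127 to 0.146 counts per 1000000 counts (CPM). Chi-square per degree of freedom was 10.7 or more for every pair of libraries, where copies of a library would give about 1. Itga3 itself, the targeted gene, had 371, 252 and 271 CPM in WT and 131, 124 and 134 CPM in KO (log2 fold change −1.20, SE 0.13, edgeR adjusted p = 0.00283), a call that was lost without WT c (adjusted p = 0.13) and without KO a (0.0934). All 8 markers of basal and HB keratinocytes were detected in every library, the lowest being Krt19 with 46 to 104 counts. They summed to 31300 to 48100 CPM in WT and 36500 to 42400 CPM in KO libraries. The HB marker Cd34 alone passed the test, named after its values were seen, with 881, 806 and 872 CPM in WT and 399, 625 and 526 CPM in KO (log2 fold change −0.72, SE 0.14, edgeR adjusted p = 0.0462). It did not pass in limma-voom, under 2 filters on low counts, or without WT b, WT c, KO a or KO c (adjusted p from 0.0685 to 0.379). The labels give 3 separate samples per genotype, and p-values measure the spread between them. WT b had 22249 counts of Xist, the RNA that coats the inactive X chromosome, and 38 counts of 4 Y-linked genes together, whereas the other 5 libraries had 1 to 3 and 5025 to 6435. WT b thus had the pattern of a female and the others that of males, so that sex was not balanced between genotypes, and results are also given without WT b.

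Cyr61 is the only member whose promoter was matched in the RefSeq promoter table (1 of 5 members, build GRCm38.p6). The 250 bases before its start site, chr3:145649986-145650235 on the minus strand, are shown because CCN1 is the relative of CCN2 that was expressed here. Capitals mark a TEAD match (GGAATG, searched on both strands), the CRE letters (TGACG, both strands) and a TATA box (TATAAA, sense strand).
Cyr61: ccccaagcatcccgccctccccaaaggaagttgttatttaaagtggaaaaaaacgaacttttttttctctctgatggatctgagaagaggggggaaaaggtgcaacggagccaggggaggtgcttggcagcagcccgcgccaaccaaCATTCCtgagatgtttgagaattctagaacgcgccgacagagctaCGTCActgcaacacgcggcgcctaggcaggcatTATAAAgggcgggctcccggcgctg
The matches begin 103, 58 and 25 bases before the start site, and none overlaps another. Of 32851 promoter windows of the same length, 12.6% held the TEAD letters, 17.8% the CRE letters and 7.59% the TATA letters. The AP-1 letters (TGANTCA, both strands) and the CArG box of SRF had no match in the Cyr61 window, and were found in 6.75% and 1.47% of all windows. Promoters of Ctgf, Nov, Wisp1 and Wisp2 are not shown.

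Ctgf, whose product CCN2 acts in matrix production and adhesion, was lower in each KO than in any WT library. The gene (ENSMUSG00000019997) lies on the plus strand of chromosome 10 at 24595442 to 24598683 (GRCm38). It stood at 797, 582 and 795 CPM in the WT libraries and at 238, 280 and 218 CPM in the KO libraries. The groups were therefore far apart, with WT b the lowest WT library and KO b the highest KO library. The log2 fold change was −1.56 (SE 0.14), with an edgeR adjusted p of 0.00054. The exact two-sided permutation p was 0.1, which is the smallest that 3 against 3 libraries allow. Ctgf was 1 of 5 members called lower in KO, where 0.212% of the 21681 genes tested were called lower. The fall of Ctgf was known when the family was chosen, so this count says nothing about the family. With all libraries, Ctgf was also the only member with an unadjusted p below 0.05 (11.5% of genes tested). No other member had genotypes that did not overlap (16.3% of genes tested, 8.23% being lower in KO). Without WT c the adjusted p of Ctgf was 0.0926, at a log2 fold change of −1.49. Without WT b, the library with the female pattern, the log2 fold change was −1.70 (edgeR adjusted p = 8.6e-05). In bulk RNA, fewer cells of a type and less RNA per cell cannot be told apart.

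Cyr61, whose product CCN1 promotes adhesion and is induced early after growth factor stimulation, did not pass the test. The gene (ENSMUSG00000028195) lies on the minus strand of chromosome 3 at 145646971 to 145649985. It stood at 698, 311 and 412 CPM in the WT libraries and at 385, 426 and 277 CPM in the KO libraries. WT a was the highest of all 6 libraries, and the other 2 WT libraries lay within the range of the KO libraries. The mean was 474 ± 200 CPM in WT and 363 ± 76.8 CPM in KO (± SD, n = 3 each), and the log2 fold change was −0.39 (SE 0.24, edgeR adjusted p = 0.614, exact two-sided permutation p = 0.5). Without WT a the log2 fold change was 0.01, so the lower mean in KO rested on that library. Without WT b it was −0.61 (edgeR adjusted p = 0.314). In that fit Cyr61 had an unadjusted p below 0.05, as did 2089 of 21255 genes. These levels rest on 5731 to 15206 counts per library. The highest WT library held 2.24 times the Cyr61 of the lowest, against 1.37 times for Ctgf.

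**Figure D1:**
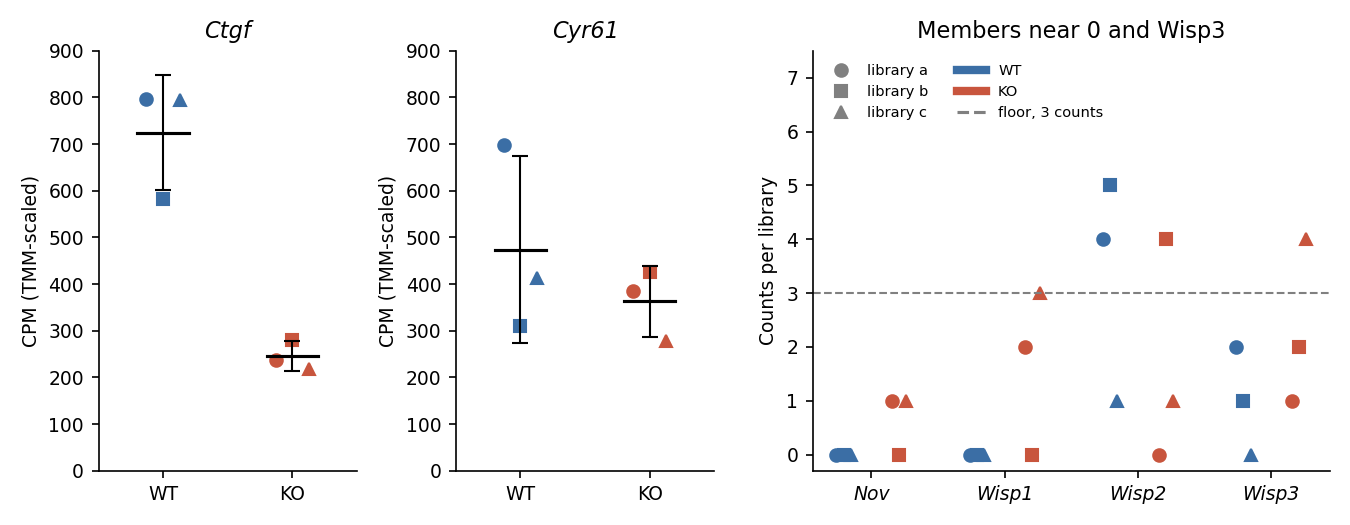
Levels of Ctgf and Cyr61 in CPM and counts of Nov, Wisp1, Wisp2 and Wisp3 in each library (symbols for libraries a, b and c, colours for genotypes, bars for the mean ± SD of 3 libraries). The Ctgf values of the genotypes lie apart, those of Cyr61 overlap, and the other genes lie at or near the floor of 3 counts.

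The remaining members were barely detected in either genotype. Nov, which encodes CCN3, had no count in the WT libraries and 1, 0 and 1 counts in the KO libraries. Over the WT libraries together the floor of 3 counts is 0.0453 CPM, and the exact 95% Poisson upper limit of a count of 0 is 0.0557 CPM. Wisp1, which encodes CCN4, had no count in WT and 2, 0 and 3 counts in KO. Neither gene exceeded the floor in any library, and no fold is given. Wisp2, which encodes the CCN5 protein that lacks the carboxy-terminal module, had 4, 5 and 1 counts in the WT libraries and 0, 4 and 1 counts in the KO libraries. Pooled, this is 0.151 CPM in WT (95% exact Poisson interval 0.0724 to 0.278) and 0.0762 CPM in KO (0.0247 to 0.178), intervals that overlap and cover counting error only. The adjusted p from edgeR was 0.638 for Nov, 0.461 for Wisp1 and 0.706 for Wisp2, and a difference was not detectable at this depth. Wisp3 (CCN6), the sixth gene of the family and not among the symbols chosen, had 0 to 2 counts in WT and 1 to 4 in KO libraries.

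Levels were compared between the genes as CPM per kb of exon. In WT libraries Ctgf stood at 253 ± 43.3 (SD, n = 3) and Cyr61 at 235 ± 99.3 (SD, n = 3) on this scale, and their ranges of 203 to 279 and 154 to 346 overlapped. In KO libraries Ctgf stood at 85.7 ± 11.2 (76.2 to 98) and Cyr61 at 180 ± 38 (137 to 211), so every KO library had more Cyr61 than any had Ctgf. Among the 21434 tested genes with an exon length, the mean level of Ctgf per kb was at percentile 99.4 in WT and 97.9 in KO, and that of Cyr61 at 99.4 and 99.1. Wisp2, Wisp1 and Nov lay far below, with means of 0.0791, 0 and 0 in WT and 0.0409, 0.0138 and 0.0106 in KO. In KO their ranges overlapped, and Wisp2 and Wisp1 had 5 counts each, so that they are not ordered.

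Within single libraries, Ctgf was lower relative to Cyr61 in each KO than in any WT library. There were 1.14, 1.87 and 1.93 Ctgf counts for each Cyr61 count in the WT libraries, and 0.618, 0.658 and 0.786 in the KO libraries. The ratios of the genotypes did not overlap, WT a being closest to the KO range. Per kb of exon, Cyr61 was above Ctgf in WT a as well, at 346 against 279. The change of Cyr61 lay 1.23 above that of Ctgf on the log2 scale (limma on the log2 ratio, SE 0.21, adjusted p = 1.24e-08, exact two-sided permutation p of the ratio 0.1). That p rests on a spread pooled over ratios that all contain Ctgf, and 97.9% of the 13809 genes fitted were called by the same test. With the spread taken from 6905 disjoint pairs of genes, the 95% interval of the difference was 0.75 to 1.71 and the adjusted p was 0.087, where 0.174% of pairs were called. Without WT a the adjusted p was 0.0129, and with any of the other 5 libraries left out it did not pass (0.114 to 0.31, and 0.124 without WT b).

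Other cell types that a sort of epidermal cells could hold were checked by their markers. The 8 fibroblast markers summed to 259, 193 and 255 CPM in the WT libraries and to 65.5, 133 and 135 CPM in the KO libraries, so this sum did not overlap between genotypes, like Ctgf. Most of the sum came from Col1a1, Thy1 and Col1a2. Col1a1, highest of the 8 in CPM, stood at 85.4 ± 41.8 CPM in WT and 37.5 ± 9.82 CPM in KO (± SD, n = 3 each), with overlapping ranges, whereas Thy1 and Col1a2 were lower in each KO than in any WT library. Their log2 fold changes were −1.19 for Col1a1, −0.96 for Thy1 and −1.18 for Col1a2. Of the 8 markers, 6 or 7 exceeded 3 counts in each library, and 5 had an unadjusted p below 0.05 in edgeR and in limma-voom. At an adjusted p below 0.05 there were 0 in both and 2 in DESeq2 (Col1a2 and Thy1). Over all genes tested, 11.5% had an unadjusted p below 0.05 in edgeR. Called were 0.673% in edgeR, 0.111% in limma-voom and 3.99% of the 13690 genes given an adjusted p in DESeq2. Pdgfra had 7 to 29 counts and was also lower in each KO than in any WT library, as were 8.23% of all genes tested. Col3a1 and Lum went the other way, so that 6 of the 8 markers were lower in KO and 2 higher in log2 fold change. Col3a1 had no count in WT and at most 29 in KO libraries. It was among the 5 with an unadjusted p below 0.05 in edgeR. Lum had at most 3 counts, and its CPM was higher in each KO than in any WT library. Of all genes tested, 16.3% did not overlap between genotypes. The part of fibroblast RNA in the Ctgf difference was not tested. Sums for endothelial (3.7 to 8.67 CPM), immune (5.57 to 10.3 CPM), smooth muscle (4.67 to 11.4 CPM) and melanocyte markers (5.97 to 12.6 CPM) were low in all libraries. Their genes highest in CPM were Tek, Cd68, Cnn1 and Dct, of which none was called in edgeR and Tek in DESeq2. The endothelial sum was also lower in each KO than in any WT library. Tek, its gene highest in CPM over all libraries, stood at 3.72 ± 1.54 CPM in WT and 1.32 ± 0.244 CPM in KO (± SD, n = 3 each). Pecam1 went the other way without overlap, with 1.14 ± 0.237 CPM in WT and 1.78 ± 0.124 CPM in KO (± SD, n = 3 each), and Cldn5 had no count in any library. The part of these cells in the Ctgf difference was not tested. The 6 suprabasal keratinocyte markers, led by Krt1, summed to 1380 to 1960 CPM in WT and 1750 to 1840 CPM in KO libraries.

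**Figure D2:**
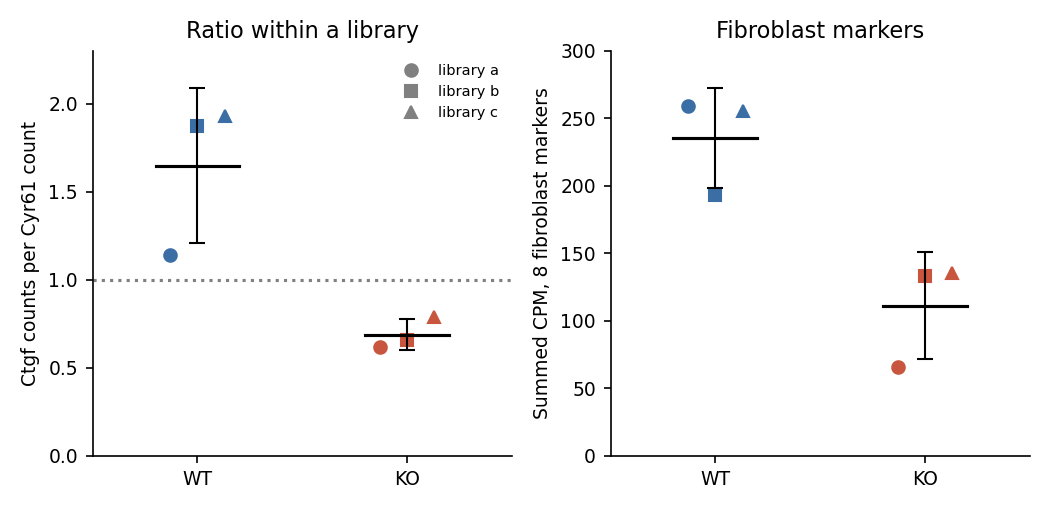
Left, Ctgf counts per Cyr61 count in each library, not scaled by gene length, with a dotted line at equal counts. Right, summed CPM of 8 fibroblast markers in each library. Bars are the mean ± SD of 3 libraries per genotype, and neither measure overlaps between genotypes.

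An antisense gene overlaps Ctgf on chromosome 10. Gm15270 lies on the minus strand, spans the first part of Ctgf, and had 276, 202 and 249 counts in the WT libraries and 90, 126 and 130 in the KO libraries. It was lower in each KO than in any WT library (log2 fold change −1.04, SE 0.21) and did not pass (edgeR adjusted p = 0.0506). Its counts were 1.38% to 2.89% of those of Ctgf. Counting took the strand into account, and carry-over of Ctgf reads from the opposite strand was not tested.

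The receptors through which CCN proteins act were measured as a list of 16 genes. None was called (0 of 16 in edgeR, limma-voom and DESeq2, with 0, 2 and 1 at an unadjusted p below 0.05). Of all genes tested, edgeR called 0.673% in either direction and limma-voom 0.111%. DESeq2 called 3.99% of the 13690 genes to which it gave an adjusted p. The median log2 fold change of the receptors was −0.06, against 0.00 over all genes. The 3 highest in CPM, which is not scaled by gene length, included Itga6, which encodes the α6 subunit that binds CCN1 and CCN2 and stood at 742 ± 94 CPM in WT and 710 ± 71.9 CPM in KO (± SD, n = 3 each). The co-receptor Sdc4 stood at 609 ± 13.9 and 604 ± 31.4 CPM, and Notch1, a receptor bound by CCN3, at 471 ± 38.5 and 533 ± 63.1 CPM. The genotypes overlapped for all 3.

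Extracellular partners and proteases of CCN proteins each held 1 gene called lower in edgeR (1 of 10 and 1 of 9 tested, where 0.212% of all genes were called lower). Tnfrsf11b, which encodes osteoprotegerin, a decoy receptor that binds CCN2, stood at 60.4, 74.7 and 61.9 CPM in the WT libraries and at 23.8, 32.2 and 17.5 CPM in the KO libraries. It fell by 1.42 on the log2 scale (SE 0.18, edgeR adjusted p = 0.00669). Its fall was known when the list was written. It was the only one of the partners (10 tested of 11 listed) called in edgeR, with 4 at an unadjusted p below 0.05 (11.5% of all genes) and a median log2 fold change of 0.26. DESeq2 called 3 of the partners, where it called 3.99% of all genes given an adjusted p. These were Tnfrsf11b and, in the opposite direction, the small proteoglycan genes Bgn and Dcn. Bgn stood at 207, 251 and 186 CPM in WT and 367, 277 and 398 CPM in KO without overlap, and did not pass in edgeR (log2 fold change 0.69, adjusted p = 0.0598). Dcn overlapped between genotypes (log2 fold change 1.84, edgeR adjusted p = 0.113). Among 9 proteases tested (of 11 listed), Mmp2, a gelatinase that can cut CCN2, stood at 220, 195 and 201 CPM in WT and 132, 159 and 138 CPM in KO libraries. Every KO library was below every WT library, and Mmp2 passed the test (log2 fold change −0.53, SE 0.10, edgeR adjusted p = 0.0431). The median of the proteases was −0.53, or −0.36 for the 6 genes above the floor. Tnfrsf11b was also called in limma-voom, whereas Mmp2 was not (adjusted p = 0.105).

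Regulators upstream of CCN1 and CCN2 (YAP, TAZ, TEAD, SRF and SMAD factors, among others) gave 0 calls of 19 in edgeR and limma-voom. In each of these tools 3 had an unadjusted p below 0.05, and DESeq2 called 1. Over all genes tested, 11.5% had an unadjusted p below 0.05 in edgeR, and DESeq2 called 3.99% of those given an adjusted p. The median log2 fold change of the 19 regulators was 0.09. Highest in CPM was Ctnnb1, which encodes β-catenin and stood at 1580 ± 125 CPM in WT and 1790 ± 77 CPM in KO (± SD, n = 3 each). The hypoxia factor gene Hif1a stood at 335 ± 75.8 and 435 ± 67.3 CPM, and Yap1 at 296 ± 5.77 and 286 ± 1.94 CPM. Yap1 was lower in each KO than in any WT library, and did not pass (log2 fold change −0.05, SE 0.08, edgeR adjusted p = 0.848). Wwtr1, which encodes TAZ, was higher in each KO than in any WT library, at 79 ± 11.3 CPM in WT and 99.5 ± 2.57 CPM in KO, and did not pass either (log2 fold change 0.33, SE 0.11, edgeR adjusted p = 0.211). Tead4, the call of DESeq2, stood at 35 ± 15.2 CPM in WT and 19.6 ± 0.261 CPM in KO, without overlap. The genotypes did not overlap in 16.3% of all genes tested. Without WT a, Wwtr1 and Tead4 were called in edgeR, in a fit that called 521 of 21387 genes, against 146 with all libraries.

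Targets of YAP and TAZ outside the CCN family were called in both directions, depending on the tool. Of 19 tested (of 20 listed), edgeR called 2 higher in KO (0.461% of all genes were called higher) and 0 lower. An unadjusted p below 0.05 was found for 5 (11.5% of all genes). The median log2 fold change was −0.09, with 14 values below 0. The 2 called higher were F3, which encodes tissue factor, and Gadd45a, a gene of growth arrest and the DNA damage response. F3 stood at 24.5, 23.4 and 24.1 CPM in the WT libraries and at 41.8, 38.3 and 31.6 CPM in the KO libraries. Gadd45a stood at 10, 6 and 8.77 CPM in WT and at 15.1, 14.7 and 20.9 CPM in KO. In both genes every KO library was above every WT library, by 0.63 (SE 0.12, adjusted p = 0.0448) and 1.03 (SE 0.20, adjusted p = 0.0472) on the log2 scale in edgeR. Neither was called in limma-voom (adjusted p = 0.127 and 0.135), where 0 of these targets were. DESeq2 called both, and also Nt5e, the gene of the ecto-nucleotidase CD73, in the direction of Ctgf. It called 3.99% of all genes to which it gave an adjusted p. Nt5e stood at 336, 338 and 301 CPM in WT and 205, 277 and 245 CPM in KO, without overlap (log2 fold change −0.42, edgeR adjusted p = 0.14, DESeq2 adjusted p = 0.0361). Ankrd1, a muscle-enriched member of the list, had no count in any library. Without WT b neither F3 (adjusted p = 0.0912) nor Gadd45a (0.0944) passed. Without WT c, or without KO a, none of the 4 genes called in the 5 lists kept an adjusted p below 0.05 in edgeR.

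**Figure D3:**
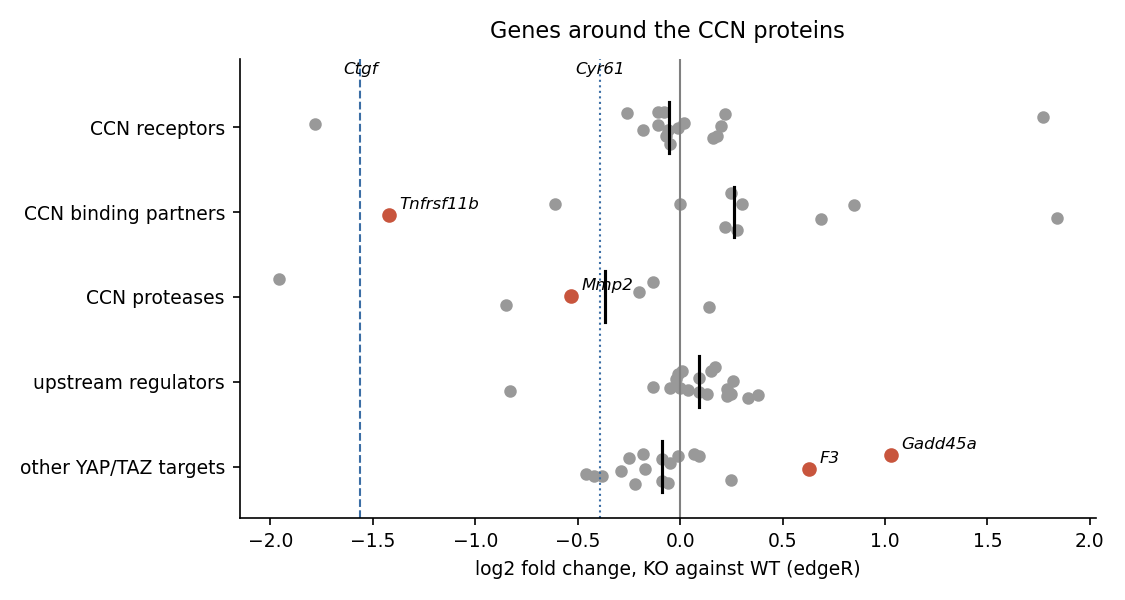
Log2 fold change of single genes (points) in 5 lists of genes around the CCN proteins, for genes with more than 3 counts in at least 1 library. Red points have an adjusted p below 0.05, black bars are list medians, and the blue lines mark Ctgf at −1.56 and Cyr61 at −0.39.

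The 5 genes with profiles most like each expressed member over the 6 libraries were then named. Likeness was the root mean square difference of log2 CPM after each gene was centred on its own mean, among 13053 other genes that had 10 or more counts in each of the libraries. Closest to Ctgf were Nptx1 (0.232), Itga4 (0.247), RP23-180A8.3 (0.267), Itga3 (0.270) and Tnfrsf11b (0.293). Their log2 fold changes lay between −1.64 and −1.20, which follows from the choice by likeness and is a description. Itga4, which encodes the α4 integrin subunit, rested on 21 to 81 counts, and RP23-180A8.3 on 20 to 68. Closest to Cyr61 were Krt19 (0.0931), S100a4 (0.130), Vamp5 (0.142), Dnd1 (0.145) and Slco2a1 (0.151), all highest in WT a. Krt19 rested on 46 to 104 counts, Vamp5 on 16 to 33 and Dnd1 on 23 to 77. Slco2a1, a prostaglandin transporter, had 264 to 510 CPM and S100a4, a calcium-binding protein, 137 to 377 CPM. Between Ctgf and Cyr61 the difference was 0.669, where a gene with equal values in all libraries would lie 0.799 from Ctgf and 0.422 from Cyr61.

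**Figure D4:**
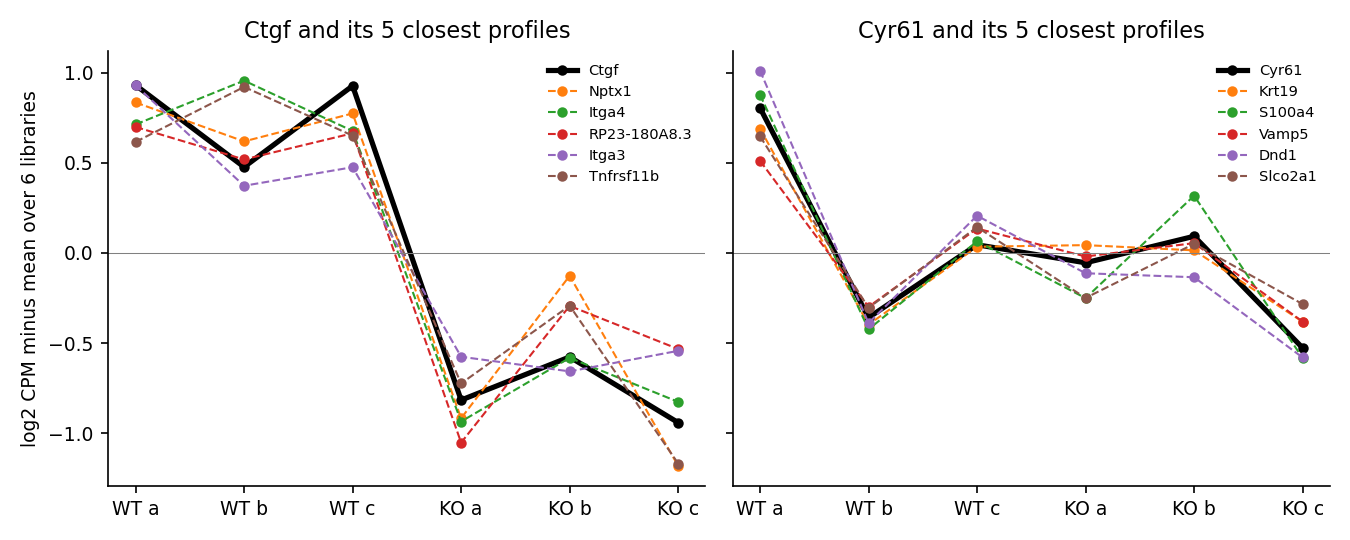
Log2 CPM minus the mean over 6 libraries for Ctgf, for Cyr61 and for the 5 genes closest to each. Lines join the points of 1 gene and imply no order of libraries. The Ctgf panel steps down from WT to KO, and the Cyr61 panel peaks in WT a.

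**Figure D5:**
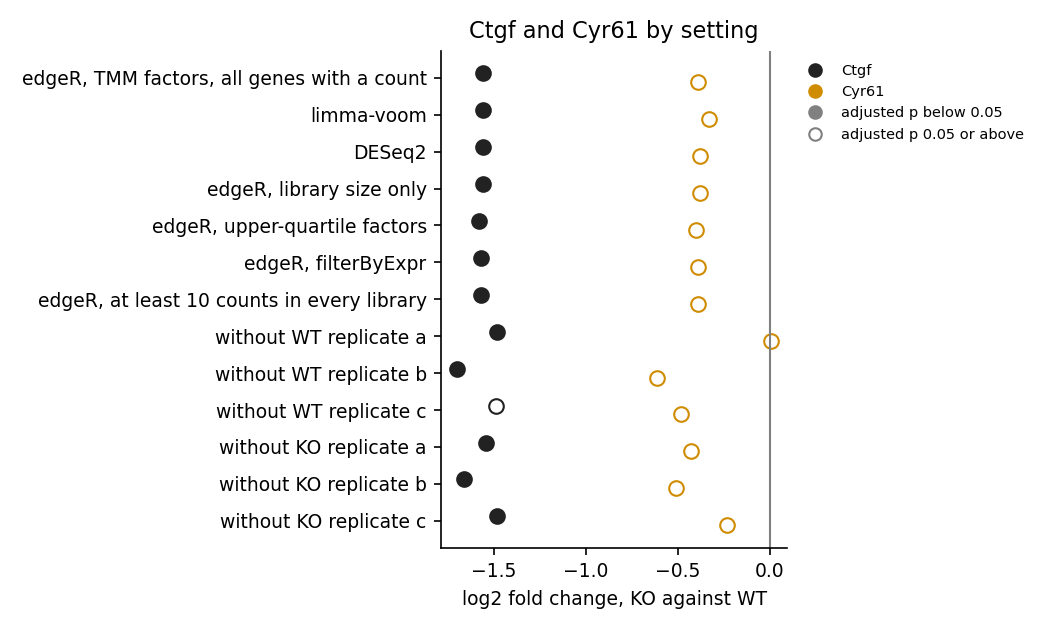
Log2 fold change of Ctgf and Cyr61 in edgeR, in 6 other tools, normalizations and filters, and with each library left out. Filled points have an adjusted p below 0.05. Ctgf stays between −1.70 and −1.48 and is open only without WT c, and Cyr61 is open throughout and reaches 0.01 without WT a.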

How the data were processed

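By the methods, the authors aligned 65-base single reads from strand-specific polyadenylated libraries to mouse genome build 38 with TopHat (TopHat2 2.1.0 and Bowtie 1.1 in the submitters' processing notes). The deposited values are counts of uniquely mapped reads per gene, strand taken into account, without normalization or pooling. Genes with a count in at least 1 library (21681 of 22295) were tested with edgeR 4.0.16 in R 4.3.3 (TMM factors, glmQLFit, glmQLFTest, genotype only), with Benjamini-Hochberg adjustment and a threshold of 0.05. CPM values are scaled by TMM factors. Exon lengths were the union of exons of GENCODE M21 (GRCm38), and motifs were searched in RefSeq promoters. Ratios to Ctgf were fitted with limma 3.58.1 on log2 CPM (prior count 2). The code was tested on simulated data. Poisson intervals and floors cover counting error only, and reads carry no molecular identifiers. The interval of the Cyr61 to Ctgf difference comes from limma and rests on the spread between libraries.

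Alternatives were limma-voom, DESeq2 1.42.0, library size only, upper-quartile factors, filterByExpr, at least 10 counts in every library, each library left out, a prior count of 0.5, voom values for the ratio, the longest transcript, and, added after seeing the data, disjoint pairs of genes. The genes named were the members, Wisp3, Itga3, called genes of each list or otherwise its 3 highest in CPM, the gene highest in CPM of each marker list, and the 5 closest profiles. Names outside this rule, such as Bgn, Nt5e, Tead4, Wwtr1 and Pecam1, were chosen with their values known. The members and lists were chosen with earlier results of these data known.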

Additional observations from a re-analysis of the deposited data

How the results depend on the processing

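The log2 fold change of Ctgf lay between −1.58 and −1.56 under 6 other tools, normalizations and filters (adjusted p from 1.09e-20 to 0.0203) and between −1.70 and −1.48 with single libraries left out. It lost the call without WT c (−1.49), which left 0 of 5 members called in edgeR, 1 having an unadjusted p below 0.05, so that the count of called members ranged from 0 to 1. Cyr61 ranged from −0.40 to −0.33 and, with libraries left out, from −0.61 to 0.01, the direction turning without WT a (adjusted p = 0.980). Itga3 ranged from −1.31 to −1.01 with libraries left out and lost the call without WT c (−1.27) and without KO a (−1.21). The change of Cyr61 relative to Ctgf ranged from 1.09 to 1.47, and with disjoint pairs of genes (1.23) its adjusted p of 0.087 did not pass. With the longest transcript as length, Ctgf in KO stood at 98.5 CPM per kb.

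Over all genes, 24 were called in limma-voom, 546 in DESeq2, 15 with filterByExpr, 12 with 10 or more counts in each library, and 5 (without WT c) to 521 (without WT a) with libraries left out, against 146. Of the 5 lists, 1 gene was called in limma-voom, 8 in DESeq2, 0 with either filter (14 at an unadjusted p below 0.05 in edgeR with each), and 0 to 7 with libraries left out, against 4. Fewer genes were tested with the filters, and the cause of these shifts was not tested. No paired analysis was possible because the library columns carry codes of their own, different for every library, and none of the sample numbers of the labels. Without WT b, the library with the female pattern, 123 genes, 1 of 5 members and 3 genes of the lists were called. In that fit 2 of 5 members had an unadjusted p below 0.05 (2089 of 21255 genes). The same number of members had one without KO b (2254 of 21367 genes). Depth limits what can be said of Nov, Wisp1, Wisp2 and Wisp3, which had at most 5 counts in any library.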
